A study of Homo sapiens with 6 samples.

Results

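The 10 genes described here encode interferon-stimulated effectors, namely the oligoadenylate synthetase family OAS1, OAS2, OAS3 and OASL, the dynamin-like GTPases MX1 and MX2, the ubiquitin-like modifier ISG15, and IFI6, IFI27 and IFI44. They were chosen by symbol, and all 10 were found among the 17088 genes of the deposited expression table. The cells were MDA-MB-231, a mesenchymal-like human breast cancer line without estrogen receptor, and their RNA was sequenced. The 3 VecRPPH1 libraries came from cells overexpressing RPPH1, the RNA subunit of the tRNA-processing enzyme RNase P, and the 3 VecNC libraries from control-vector cells; both groups were the same line, and the labels name no other treatment. The labels did not say whether the replicates were separate cultures, whether the cells were clones or pools, or what the vectors were, so the p-values reflect the spread of these libraries alone, and that spread may be technical. In bulk RNA, fewer cells expressing a gene and less of its RNA per cell cannot be told apart.

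Interferons bind cell-surface receptors whose JAK kinases phosphorylate STAT proteins. With IRF9 these bind the interferon-stimulated response element (ISRE) of target promoters, and the products of the target genes block steps of viral replication. The same genes are widely used as a readout of interferon signalling and of the sensing of double-stranded RNA.

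Library totals were 17603126 to 18274890 fragments in VecRPPH1 cells and 18204469 to 18817269 fragments in VecNC cells. The level of RPPH1 was not analysed here. VecNC replicate 1 lay at -10.9 along the first principal component, and the other 5 libraries lay between -0.107 and 4.40. Of the line's markers, VIM, a mesenchymal filament gene, was at 2585 FPKM or more and CDH1, the epithelial cadherin, at 0.144 FPKM or less in every library, as the label implies, while the epithelial marker EPCAM was at 6.17 to 7.29 FPKM. FPKM is fragments per kilobase of gene per 1000000 fragments, so it is scaled for gene length and for depth. Comparisons of level between genes rest on the gene lengths used, which were not stated. The summed level of 10 immune, endothelial and fibroblast markers was 5.54 to 6.50 FPKM in VecRPPH1 cells and 4.30 to 4.87 FPKM in VecNC cells. CD14, a monocyte receptor, was the highest of them, at 3.23 ± 0.204 FPKM in VecRPPH1 cells and 2.30 ± 0.241 FPKM in VecNC cells (here and below, ± is the SD over n = 3 libraries). PTPRC, the pan-leukocyte marker, was at 0.158 FPKM or less, and CDH5 and VWF of endothelial cells were at or near 0. The endothelial marker PECAM1 was at 0.772 ± 0.172 FPKM in VecRPPH1 cells and 0.579 ± 0.0989 FPKM in VecNC cells. PDGFRB was at 0.696 ± 0.0527 FPKM in VecRPPH1 cells and 0.444 ± 0.122 FPKM in VecNC cells. CSF1R was at 1.08 ± 0.223 FPKM in VecRPPH1 cells and 1.14 ± 0.278 FPKM in VecNC cells. The part of these markers in the results below was not tested.

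None of these genes passed the test for a difference between VecRPPH1 and VecNC cells. ISG15, the most abundant, was at 73.0 FPKM in VecRPPH1 cells and 72.9 FPKM in VecNC cells, and the largest tested differences of means were those of OASL (18.8% higher in VecRPPH1 cells) and IFI44 (15.4% higher). Of the 10 genes, 7 reached the filter of at least 1 FPKM in at least 3 libraries and were tested, and OAS1, MX1 and MX2 did not. By limma on log2(FPKM + 1), 0 of the 7 passed an adjusted p of 0.05, where 0.00917% of all 10909 tested genes did; by limma-voom on the recovered fragments it was also 0 of 7, where 0.156% of all genes did. At an unadjusted p under 0.05 there were 2 of 7, OASL and IFI44, by either tool, beside 7.97% of all genes by limma and 8.66% by limma-voom. The groups did not overlap in 1 of 7, IFI44, which was higher, beside 13.9% of all tested genes in either direction and 7.98% with VecRPPH1 higher. Both OASL and IFI44 had the higher mean in VecRPPH1 cells, as 4.29% of all genes did with such a p. Of the 7, 3 had higher and 4 lower means in VecRPPH1 cells, with a median log2 fold change of -0.0071, where 52.3% of all tested genes had higher means and the median was 0.0046.

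**Figure D1:**
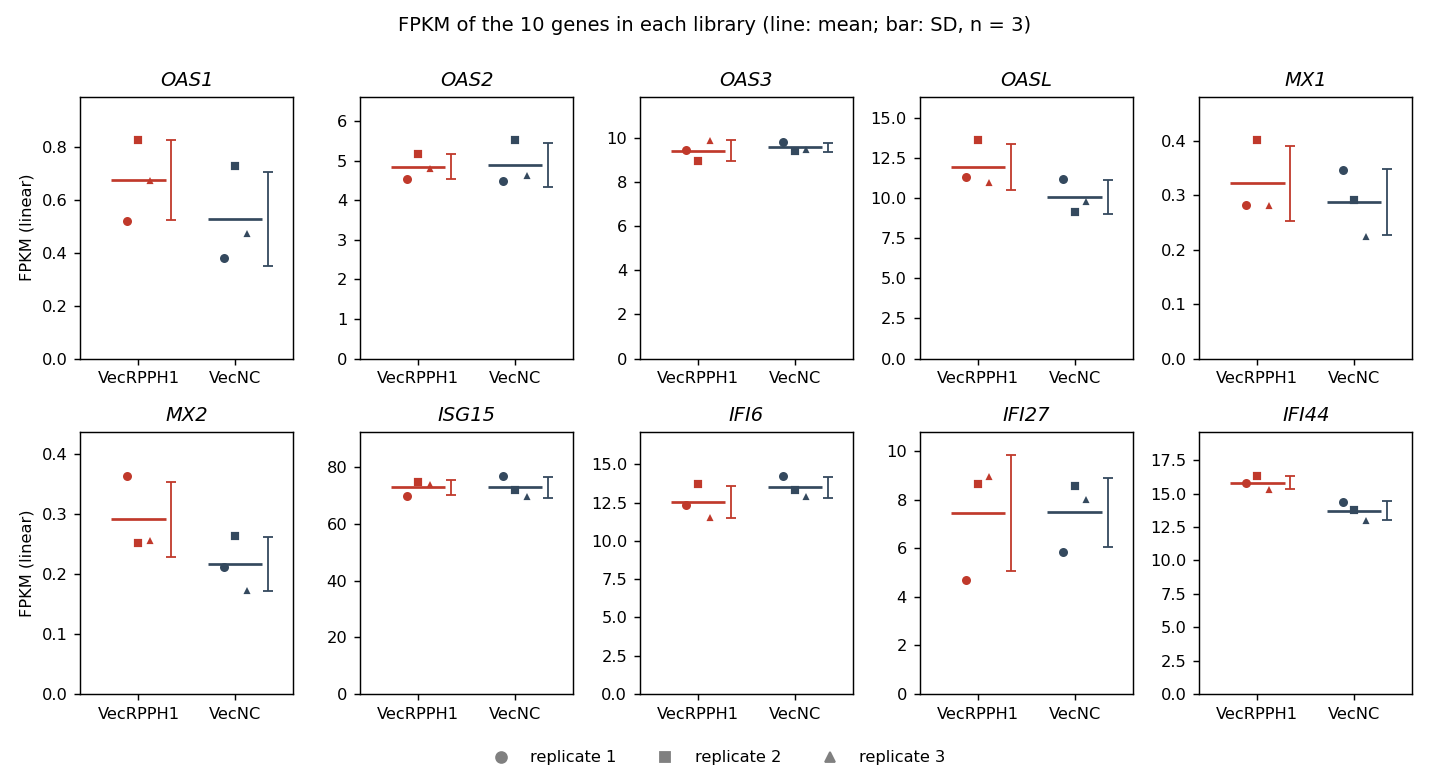
FPKM of each of the 10 genes in the 3 VecRPPH1 libraries (left, red) and the 3 VecNC libraries (right, dark), on linear axes that start at 0; marker shape gives the replicate number, lines are means and bars the SD. IFI44 is the gene whose groups do not overlap, at 15.3 to 16.3 FPKM in VecRPPH1 cells and 12.98 to 14.4 FPKM in VecNC cells.

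The members differed far more in level from each other than between the groups. ISG15 was the highest in every library, at a mean of 73.0 FPKM over the 6 libraries, above 95.1% of all genes in the table. It made up 53.6 ± 0.960% of the summed FPKM of the 10 genes in VecRPPH1 cells and 54.8 ± 0.956% in VecNC cells. IFI44 (14.8 FPKM), IFI6 (13.01 FPKM), OASL (11.0004 FPKM), OAS3 (9.51 FPKM), IFI27 (7.46 FPKM) and OAS2 (4.87 FPKM) followed. Each gene from IFI44 to IFI27 had a range over the 6 libraries that overlapped that of the next gene in this order, so those neighbours were not separated by their spread over libraries. Within single libraries the order held in 6 of 6 for each step, other than OASL above OAS3 and MX1 above MX2, which held in 5 of 6. OAS1 (0.602 FPKM), MX1 (0.304 FPKM) and MX2 (0.254 FPKM) formed the low end, below all libraries of OAS2, and the range of each overlapped the next.

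Several of these genes are neighbours in the genome. OAS1, OAS3 and OAS2 lie side by side on the plus strand of chromosome 12 (112906777 to 112933222, 112938352 to 112973249 and 112978395 to 113011723; GRCh38, GENCODE 29). OASL lies apart from them on the minus strand of chromosome 12 (121019111 to 121039242). MX2 and MX1 are neighbours on the plus strand of chromosome 21 (41361943 to 41409390 and 41420304 to 41459214). ISG15 (1001138 to 1014540, plus strand), IFI6 (27666061 to 27672218, minus strand) and IFI44 (78649796 to 78664078, plus strand) are on chromosome 1, and IFI27 is on the plus strand of chromosome 14 (94104836 to 94116698). The antisense gene AC004551.1 overlaps OAS1, OAS3 and OAS2, and antisense genes also overlap MX1, ISG15 and IFI6. The libraries were stranded, but whether the counting used strand is not given in the sources used here, so reads of those antisense genes cannot be told apart from the members' own unless it did.

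Promoter windows were searched for the letters of the ISRE core, and 4 are shown because these genes span the range of levels measured here and include IFI44, whose groups did not overlap. RefSeq promoter windows (GRCh38.p14, 250 bases before to 50 bases after an annotated start) were found for 7 members, namely OAS1, OAS3, MX1, ISG15, IFI6, IFI27 and IFI44, and OAS2, OASL and MX2 had no entry. Each line runs 5' to 3' on the gene's strand, and capitals mark the ISRE core, searched on both strands as GAAA, any 2 bases and GAAA again, or the reverse complement of that. The windows are chr1:78649581-78649880 (plus) for the second start of IFI44, chr1:1013247-1013546 (plus) for ISG15, chr1:27672143-27672442 (minus) for IFI6 and chr21:41420308-41420607 (plus) for the first start of MX1.
IFI44: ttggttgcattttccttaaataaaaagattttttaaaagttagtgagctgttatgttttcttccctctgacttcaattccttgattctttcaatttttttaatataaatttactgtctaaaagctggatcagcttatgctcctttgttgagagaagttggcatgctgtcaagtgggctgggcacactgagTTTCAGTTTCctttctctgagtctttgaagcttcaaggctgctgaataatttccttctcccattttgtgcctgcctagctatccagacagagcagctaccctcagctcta
ISG15: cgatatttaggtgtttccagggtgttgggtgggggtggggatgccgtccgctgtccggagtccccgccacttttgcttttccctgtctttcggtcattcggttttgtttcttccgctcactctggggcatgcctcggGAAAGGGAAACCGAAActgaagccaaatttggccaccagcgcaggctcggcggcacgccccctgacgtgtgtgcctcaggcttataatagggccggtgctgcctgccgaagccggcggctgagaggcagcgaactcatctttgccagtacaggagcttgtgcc
IFI6: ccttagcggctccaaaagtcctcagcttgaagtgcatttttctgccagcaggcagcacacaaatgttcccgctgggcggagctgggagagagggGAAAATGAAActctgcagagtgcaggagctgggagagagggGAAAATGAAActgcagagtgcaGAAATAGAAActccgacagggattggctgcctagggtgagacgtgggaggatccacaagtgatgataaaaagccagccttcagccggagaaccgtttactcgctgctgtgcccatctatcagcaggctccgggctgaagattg
MX1: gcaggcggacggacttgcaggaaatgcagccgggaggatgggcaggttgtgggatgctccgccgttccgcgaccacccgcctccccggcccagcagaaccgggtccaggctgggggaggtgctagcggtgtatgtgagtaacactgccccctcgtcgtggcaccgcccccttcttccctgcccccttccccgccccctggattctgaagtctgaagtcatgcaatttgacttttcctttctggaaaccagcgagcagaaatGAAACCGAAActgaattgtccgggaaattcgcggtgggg

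The ISRE core was found in 6 of these 7 genes, all but OAS1, while 4.38% of the 27305 genes with a window and 3.57% of all 35116 windows held it. The OAS1 window holds gaaacgaaa, with a single base between the GAAA stretches, which the letters searched do not match. Such variants were not searched for, so OAS1 lacks only the exact letters. ISG15 had overlapping matches at -113 to -104 and -107 to -98 from the start. IFI6 had 3 matches, at -156, -115 and -93 (first base), in a repeated stretch. IFI44 had a single match on the opposite strand, at -60 to -51 from its second start and at -18 to -9 from its first, and MX1 had one just inside its first transcript, at 12 to 21. Among the other interferon-stimulated effectors of the list given below, 25 of 39 genes with a window held the core, and of 10 interferon receptor and JAK-STAT genes 0 did. The letters of the GAS motif (TTCNNNGAA, which reads the same on both strands) were found in OAS1, MX1 and IFI27, against 9.38% of all genes with a window. In IFI27 and in the third window of MX1 the GAS match shared bases with an ISRE match. MX1 at 0.304 FPKM and ISG15 at 73.0 FPKM both held the core, so its letters were present at both ends of the range of levels.

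**Figure D2:**
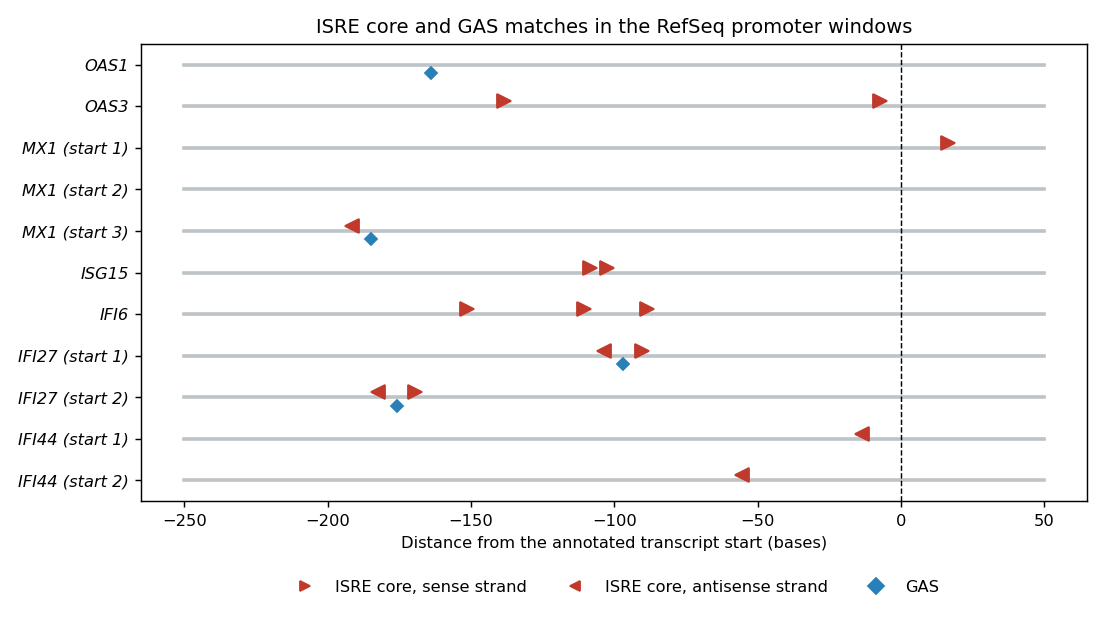
Positions of ISRE core matches (triangles pointing along the strand) and GAS matches (diamonds) in the 11 RefSeq promoter windows of 7 members; the axis is the distance in bases from each annotated transcript start. OAS1 and the second start of MX1 have no match to the exact ISRE core letters searched, and IFI6 has 3.

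The oligoadenylate synthetases OAS1, OAS2 and OAS3 make an oligoadenylate second messenger when they bind double-stranded RNA. OAS3, the largest of them and the one most active on long double-stranded RNA, was at 9.45, 8.96 and 9.90 FPKM in VecRPPH1 replicates 1, 2 and 3, against 9.82, 9.42 and 9.51 FPKM in VecNC replicates 1, 2 and 3. The groups overlapped, and the log2 fold change was -0.021 (SE 0.052, 95% interval -0.137 to 0.0953, limma adjusted p = 0.942). OAS2 was at 4.54, 5.18 and 4.82 FPKM in VecRPPH1 cells, against 4.50, 5.52 and 4.65 FPKM in VecNC cells. Its highest library was VecNC replicate 2, and the log2 fold change was -0.0071 (SE 0.0767, 95% interval -0.179 to 0.165, limma adjusted p = 0.985).

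OAS1 was under the filter on low values. It had 36, 56 and 45 fragments, or 0.522, 0.827 and 0.678 FPKM, in VecRPPH1 cells, against 27, 50 and 33 fragments, or 0.380, 0.728 and 0.477 FPKM, in VecNC cells. The mean was 27.8% higher in VecRPPH1 cells, the groups overlapped, and the two-sided exact permutation test gave p = 0.4, where the smallest p that 3 against 3 libraries allow is 0.1. In both groups replicate 2 was highest and replicate 1 lowest. The log2 ratio of its mean FPKM was 0.35, and with 1 library left out it ranged from 0.17 (without VecNC replicate 1) to 0.66 (without VecNC replicate 2). The summed FPKM of OAS1, OAS2 and OAS3 was 14.96 ± 0.443 in VecRPPH1 cells and 14.998 ± 0.577 in VecNC cells (exact permutation p = 1).

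OASL has the OAS fold but no synthetase activity, carries ubiquitin-like domains and enhances RIG-I signalling. It was at 11.3, 13.6 and 10.96 FPKM in VecRPPH1 cells, against 11.2, 9.15 and 9.81 FPKM in VecNC cells. VecRPPH1 replicate 2 was the highest of the 6, and VecNC replicate 1 lay above VecRPPH1 replicate 3, so the groups overlapped. The mean was 18.8% higher in VecRPPH1 cells, with a log2 fold change of 0.23 (SE 0.0879, 95% interval 0.0299 to 0.423, unadjusted p = 0.0281), and it did not pass (limma adjusted p = 0.573, limma-voom adjusted p = 0.486). OASL made up 43.8, 47.6 and 41.6% of the FPKM summed over the 4 OAS family genes in VecRPPH1 cells, against 43.3, 36.9 and 40.1% in VecNC cells. These shares overlapped between the groups as well (exact permutation p = 0.2). Its log2 fold change was 0.14 without VecRPPH1 replicate 2 and 0.30 without VecNC replicate 1, and its unadjusted p was above 0.05 without VecRPPH1 replicate 2 (0.118), VecNC replicate 2 (0.107) or VecNC replicate 3 (0.0687).

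MX1, a cytoplasmic GTPase that restricts influenza virus, and MX2, its nuclear-pore-associated relative that restricts HIV, were barely detected. MX1 had 30, 42 and 29 fragments (0.281, 0.401 and 0.282 FPKM) in VecRPPH1 cells, against 38, 31 and 24 fragments (0.346, 0.292 and 0.224 FPKM) in VecNC cells. MX2 had 25, 17 and 17 fragments (0.364, 0.252 and 0.257 FPKM) in VecRPPH1 cells, against 15, 18 and 12 fragments (0.212, 0.263 and 0.174 FPKM) in VecNC cells. The groups overlapped for both genes, and the exact permutation p was 0.7 for MX1 and 0.3 for MX2. The mean was 11.9% higher in VecRPPH1 cells for MX1 and 34.4% higher for MX2. The log2 ratio of means of MX1 was 0.16, and it was -0.028 without VecRPPH1 replicate 2, 0.012 without VecNC replicate 3 and 0.32 without VecNC replicate 1, so its direction rested on a single library. That of MX2 was 0.43, and it ranged from 0.23 (without VecRPPH1 replicate 1) to 0.59 (without VecNC replicate 2).

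ISG15 is joined to other proteins much as ubiquitin is, and is also secreted. It was at 70.0, 74.9 and 74.0 FPKM in VecRPPH1 cells, against 77.1, 71.9 and 69.8 FPKM in VecNC cells. Both ends of the range were VecNC libraries, and the means were 73.0 ± 2.62 FPKM in VecRPPH1 cells and 72.9 ± 3.73 FPKM in VecNC cells. The log2 fold change was 0.0014 (SE 0.0467, limma adjusted p = 0.996) with a 95% interval of -0.103 to 0.106, the narrowest of the 7 tested members.

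The enzymes that attach ISG15, with the protease USP18 that removes it, formed a list of 7, and 6 were tested (USP18 was under the filter). All 6 had higher means in VecRPPH1 cells, beside 52.3% of all tested genes, 0 passed by limma or limma-voom, and 2 had an unadjusted limma p under 0.05 (1 by limma-voom). HERC5, the human ISG15 ligase, was at 14.5, 14.1 and 14.2 FPKM in VecRPPH1 cells, against 13.4, 13.1 and 13.3 FPKM in VecNC cells (log2 fold change 0.098, limma adjusted p = 0.618). HERC6, its paralog and the ISG15 ligase of mice, was at 6.09, 5.96 and 6.17 FPKM in VecRPPH1 cells, against 5.04, 4.93 and 4.29 FPKM in VecNC cells (log2 fold change 0.30, limma adjusted p = 0.307). TRIM25, a ubiquitin and ISG15 ligase that acts on RIG-I, was at 58.4 ± 1.19 FPKM in VecRPPH1 cells and 55.7 ± 0.525 FPKM in VecNC cells (limma adjusted p = 0.675). These 3, named for the smallest p of the list, were also the ones of the 6 whose groups did not overlap, with VecRPPH1 higher, as in 7.98% of all tested genes.

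IFI6 and IFI27 encode small hydrophobic membrane proteins of one family. IFI6 was at 12.3, 13.7 and 11.6 FPKM in VecRPPH1 cells, against 14.3, 13.3 and 12.9 FPKM in VecNC cells. Its groups overlapped, the mean was 12.5 ± 1.06 FPKM in VecRPPH1 cells and 13.5 ± 0.682 FPKM in VecNC cells, and the log2 fold change was -0.10 (SE 0.0644, 95% interval -0.245 to 0.0428, limma adjusted p = 0.715). With 1 library left out it was -0.16 without VecRPPH1 replicate 2 (unadjusted p = 0.027, limma adjusted p = 0.585), -0.050 without VecRPPH1 replicate 3 and -0.064 without VecNC replicate 1. IFI27 was at 4.69, 8.66 and 8.99 FPKM in VecRPPH1 cells, against 5.84, 8.54 and 8.04 FPKM in VecNC cells. Replicate 1 was the lowest library in both groups, at 32 fragments in VecRPPH1 cells and 41 in VecNC cells, where the other 4 libraries had 55 to 59. Its log2 fold change was -0.034 with the widest interval of the 7 (SE 0.199, 95% interval -0.480 to 0.411, limma adjusted p = 0.978). It was 0.23 without VecRPPH1 replicate 1 and -0.18 without VecNC replicate 1, so its sign rested on single libraries.

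IFI44, a cytoplasmic protein induced by interferon, showed the smallest p of the 7. It was at 15.8, 16.3 and 15.3 FPKM (748, 760 and 699 fragments) in VecRPPH1 cells, against 14.4, 13.8 and 12.98 FPKM (701, 650 and 617 fragments) in VecNC cells. Every VecRPPH1 library lay above every VecNC library, and the mean was 15.4% higher. The log2 fold change was 0.19 (SE 0.0512, 95% interval 0.0791 to 0.308, unadjusted p = 0.00378), and it did not pass over all genes (limma adjusted p = 0.398, limma-voom adjusted p = 0.320). Of all tested genes, 0.935% had a p as small or smaller. With 1 library left out, its log2 fold change ranged between 0.16 and 0.23, with the upper end without VecNC replicate 1. Its neighbour and paralog IFI44L was near 1 FPKM, at 0.86, 0.85 and 0.68 FPKM in VecRPPH1 cells, against 0.78, 0.92 and 0.81 FPKM in VecNC cells, and was not tested.

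**Figure D3:**
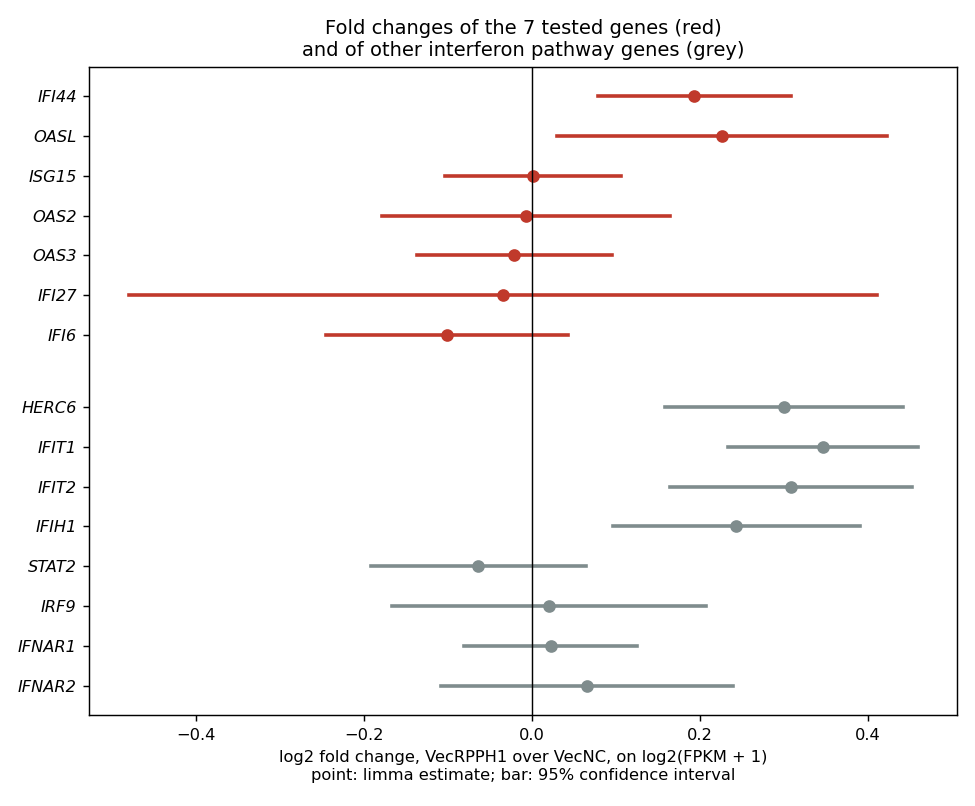
limma log2 fold changes (VecRPPH1 over VecNC, on log2(FPKM + 1)) with 95% confidence intervals for the 7 tested members (red) and for some interferon pathway genes of the other lists (grey). The grey genes are HERC6, IFIT1, IFIT2, IFIH1, STAT2, IRF9, IFNAR1 and IFNAR2, and other named genes are not drawn. The intervals of IFI44 and OASL lie above 0 without adjustment over genes, and that of IFI27 is the widest of the members. Of the grey genes, the intervals of HERC6, IFIT1, IFIT2 and IFIH1 also lie above 0, and those of STAT2, IRF9, IFNAR1 and IFNAR2 include 0.

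The libraries did not rank the members in one order. VecRPPH1 replicate 2 was the highest of the 6 for 4 members, OAS1, OASL, MX1 and IFI44, and the lowest for OAS3. VecNC replicate 3 was the lowest for 4, MX1, MX2, ISG15 and IFI44, and the highest for none. VecNC replicate 1, which stood apart over all genes, was the highest for ISG15 and IFI6 and the lowest for OAS1 and OAS2. On the log2 scale the mean of the 7 tested members lay at -0.0697, 0.127 and 0.0528 from the VecNC mean in VecRPPH1 replicates 1, 2 and 3, and at 0.0014, 0.0235 and -0.0249 in VecNC replicates 1, 2 and 3. VecRPPH1 replicate 1 was thus below all 3 VecNC libraries on this measure. That library also held the lowest value of IFI27, 4.69 FPKM, against 5.84 to 8.99 FPKM in the other libraries. The measure was not recomputed without IFI27, so the place of this library may rest on that gene.

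The spread between replicates exceeded counting noise for some members and not for others. Within groups, the chi-square of fragments per degree of freedom, which is near 1 where counting alone sets the spread, was 5.70 for OASL, 3.81 for OAS2, 3.56 for IFI27 and 3.30 for OAS1. It was 1.67 for ISG15, 1.67 for OAS3, 1.47 for MX1, 1.23 for IFI44, 0.943 for IFI6 and 0.784 for MX2. The median over all tested genes was 2.38. OASL thus varied more between replicates than IFI44, and the smaller difference of IFI44 had the smaller p.

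**Figure D4:**
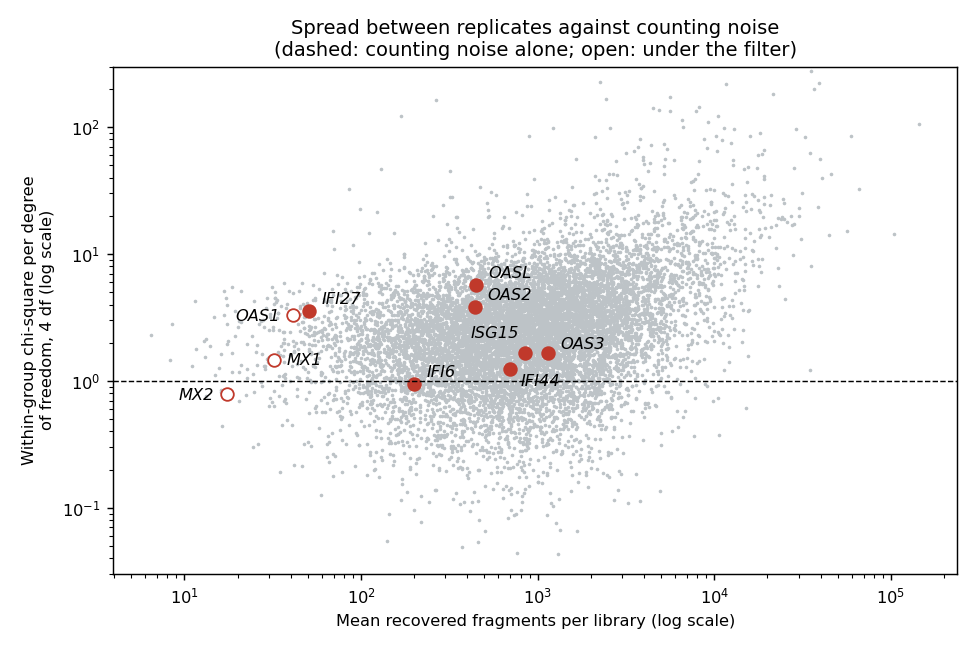
Within-group chi-square of the recovered fragments per degree of freedom (log axis) against the mean fragments per library (log axis) for all tested genes (grey) and the 10 members (red; open where under the filter on low values). The dashed line at 1 marks counting noise alone; OASL at 5.70 is the highest of the members and MX2 at 0.784 the lowest.

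Upstream of these genes, 3 of 9 interferon genes looked for (type I, type III and the type II gene IFNG) were in the table. These 3, all of type I or III, were at or near 0, and the others were not analysed here. IFNB1, the type I interferon made first by most infected cells, was listed at 0 in all 6 libraries, where 3 fragments would be 0.159 to 0.170 fragments per 1000000. IFNE was above 0 in VecRPPH1 replicate 3 alone, and IFNL1, a type III interferon, in VecNC replicates 1 and 2 alone, each at 0.137 FPKM or less. The receptor chains of type I interferon were present, IFNAR1 at 13.7 ± 0.457 FPKM in VecRPPH1 cells and 13.4 ± 0.248 FPKM in VecNC cells, and IFNAR2 at 3.62 ± 0.442 FPKM in VecRPPH1 cells and 3.40 ± 0.130 FPKM in VecNC cells. The type III receptor chain IFNLR1 was at 0.818 ± 0.0648 FPKM in VecRPPH1 cells and 1.00 ± 0.0811 FPKM in VecNC cells and was not tested. Its groups did not overlap, at 0.777 to 0.893 FPKM in VecRPPH1 cells and 0.907 to 1.05 FPKM in VecNC cells. IL10RB, the partner of IFNLR1, was at 12.9 ± 1.57 FPKM in VecRPPH1 cells and 11.6 ± 0.464 FPKM in VecNC cells.

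The transducers of the signal were also expressed. STAT2 was at 15.2 ± 1.18 FPKM in VecRPPH1 cells and 15.9 ± 0.297 FPKM in VecNC cells, and IRF9, which joins it at target promoters, at 15.4 ± 2.01 FPKM in VecRPPH1 cells and 15.1 ± 0.951 FPKM in VecNC cells. The kinases JAK1 and TYK2 were at 32.4 to 36.05 FPKM and 32.7 to 35.7 FPKM over the 6 libraries, and JAK2 at 1.27 to 1.61 FPKM. The groups of TYK2 did not overlap, narrowly, with VecRPPH1 lower, as 13.9% of all tested genes did not in either direction. TYK2 was at 32.7 to 33.538 FPKM in VecRPPH1 cells and 33.543 to 35.7 FPKM in VecNC cells (limma adjusted p = 0.701). The receptor chains of interferon gamma, IFNGR1 and IFNGR2, were at 20.1 to 22.2 FPKM and 19.3 to 22.9 FPKM. Of 11 tested receptor and JAK-STAT genes, 7 had higher and 4 lower means, 0 passed by limma or limma-voom, and 0 had an unadjusted p under 0.05 by either.

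Of 7 tested interferon regulatory factors and feedback inhibitors, 0 passed by limma or limma-voom, and PIAS1, an inhibitor of STAT signalling, alone had an unadjusted p under 0.05 (limma adjusted p = 0.573), at 6.80 ± 0.233 FPKM in VecRPPH1 cells and 6.04 ± 0.287 FPKM in VecNC cells. IRF7, the amplifier of interferon transcription, was at 7.65 ± 0.616 FPKM in VecRPPH1 cells and 8.32 ± 0.522 FPKM in VecNC cells. IRF3, which acts directly downstream of RNA sensors, was at 38.9 ± 2.59 FPKM in VecRPPH1 cells and 40.9 ± 0.875 FPKM in VecNC cells.

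Other genes tied to the synthetases were also measured. ABCE1, a ribosome recycling factor, was at 73.7 ± 3.44 FPKM in VecRPPH1 cells and 73.9 ± 5.24 FPKM in VecNC cells. PDE12, which degrades the messenger of the synthetases, was at 6.51 ± 0.407 FPKM in VecRPPH1 cells and 6.31 ± 0.326 FPKM in VecNC cells. Neither gene passed by limma (adjusted p = 0.995 for ABCE1 and 0.911 for PDE12) or by limma-voom.

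Among 38 tested genes of the other interferon-stimulated effectors, 33 had higher means in VecRPPH1 cells, beside 52.3% of all tested genes, and the median log2 fold change was 0.062. By limma 0 passed, and by limma-voom IFIT1 alone did (adjusted p = 0.0134). An unadjusted p under 0.05 was reached by 4 with limma, all with higher means, and by 5 with limma-voom. IFIT1, which binds foreign RNA ends, was at 10.1, 10.9 and 10.3 FPKM in VecRPPH1 cells, against 8.17, 7.74 and 8.06 FPKM in VecNC cells. Its groups did not overlap, and its log2 fold change was 0.35 (SE 0.0507, limma adjusted p = 0.0710). IFIT2, its relative, had a log2 fold change of 0.31 (limma adjusted p = 0.306), and TRIM21, a cytosolic antibody receptor, one of 0.15 (limma adjusted p = 0.573). The summed markers of other cell types given above and CD14 also had higher values in VecRPPH1 cells, and their part in these counts was not tested.

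RNA and DNA sensors were tested in 10 genes, with 6 higher and 4 lower means, 0 passing by limma or limma-voom and 1 with an unadjusted p under 0.05 by each. That gene was IFIH1, the sensor MDA5 of long double-stranded RNA, at 4.49 ± 0.157 FPKM in VecRPPH1 cells and 3.65 ± 0.3002 FPKM in VecNC cells (log2 fold change 0.24, limma adjusted p = 0.411). TLR3, the endosomal sensor, was at 2.69 ± 0.226 FPKM in VecRPPH1 cells and 2.44 ± 0.266 FPKM in VecNC cells, and ADAR, which edits double-stranded RNA, at 45.6 ± 0.664 FPKM in VecRPPH1 cells and 44.1 ± 0.307 FPKM in VecNC cells.

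The fold changes of the members were recomputed with each library left out and under the other settings. OASL, IFI44 and IFI6, and the untested OAS1 and MX2, kept their sign in all of these that gave a value, while OAS2, OAS3, ISG15, IFI27 and the untested MX1 each changed sign in at least 1. No member passed under any of them, with adjusted p-values from 0.275 to 0.925 for IFI44 and from 0.362 to 0.925 for OASL.

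**Figure D5:**
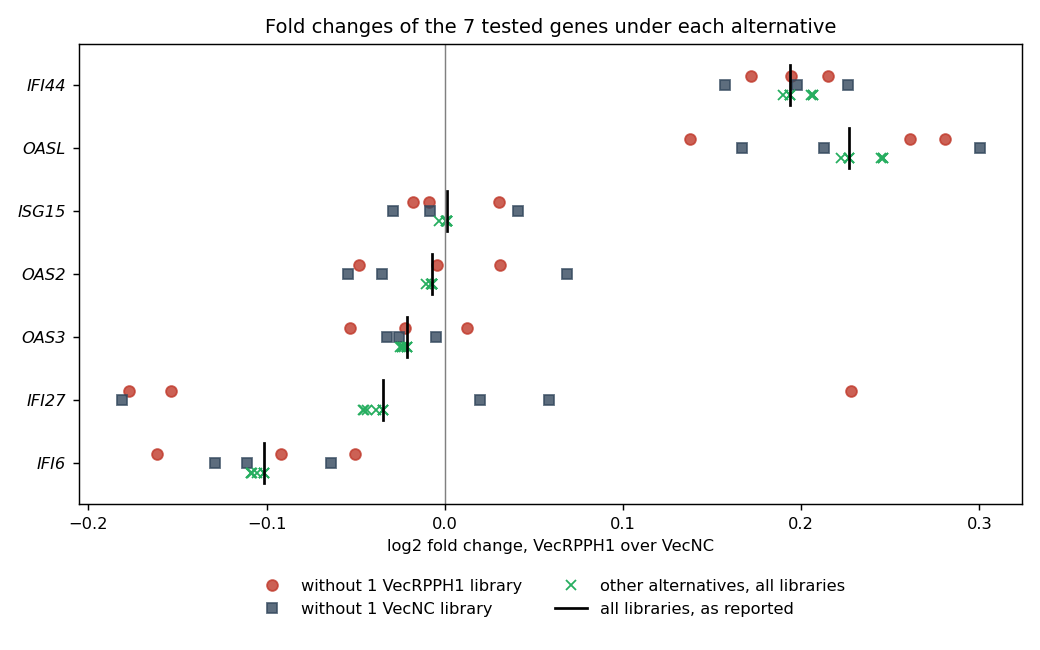
log2 fold changes (VecRPPH1 over VecNC) of the 7 tested members with each library left out (red circles for VecRPPH1, dark squares for VecNC) and under the other settings (green crosses), with the reported value as a black line. IFI44 stays between 0.16 and 0.23, and IFI27 ranges from -0.18 to 0.23.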

How the data were processed

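Poly(A)-selected, strand-marking libraries were made from total RNA, 3 per group, per the labels' protocols. The submitters' processing notes name Trimmomatic, HISAT2, Cufflinks and GRCh38, with no version; neither the annotation release nor the strand setting was stated. The authors deposited 1 column of values per library, which are taken as FPKM, scaled by the authors for depth and gene length. The headers give no unit; Cufflinks is named in those notes, and the values resolve to whole fragments over a gene length and a library total. Because FPKM hides the counting error, fragments were recovered: in 16292 of 16293 genes above 0, all values were whole multiples of 1 fragment at the smallest whole gene length, with a relative tolerance of 1e-09 widened for the printed digits of low values. A larger common factor per gene cannot be seen this way.

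The linear model of limma (version 3.58.1, R version 4.3.3), with a mean-variance trend and group as its only term, was fitted to log2(FPKM + 1) of the 10909 genes that reached 1 FPKM in 3 or more libraries. P-values were adjusted by Benjamini-Hochberg over these genes, with a threshold of 0.05. The pseudocount understates changes of low genes. Members under the filter got a two-sided exact permutation test. Alternatives were a pseudocount of 0.1, no filter, a filter of 1 CPM, median-of-ratios rescaling, limma-voom on the fragments, the replicate block and leaving out each library. Replicates of a group differed beyond counting noise (chi-square per degree of freedom 2.21 to 8.36), so each library counted as 1 sample; floors cover counting error only. In simulated data, the fragment recovery returned 98.9% of genes exactly. The main limma fit was also run on simulated data, with changes larger than the differences of means of the members here. That run therefore cannot show how often changes of the members' size would be called.

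The members, lists and tests were chosen with earlier results of these data known. Named genes are all members, every interferon and receptor gene by its level, and the up to 3 genes with the smallest limma p of each other list, beside cell markers; IFI44L was named as the paralog of IFI44. Some genes of these lists are counted but not reported here by name. Promoters are RefSeq windows on GRCh38.p14.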

Additional observations from a re-analysis of the deposited data

How the results depend on the processing

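The count of all genes past the threshold was 1 as reported, 17 with limma-voom on the recovered fragments, 19 with limma-voom and no filter, 0 with no filter on low values and 0 with the replicate block, and 0 to 7 with 1 library left out (7 without VecNC replicate 1). No member passed under any of these. The limma-voom fit called without a filter here still left out genes with under 10 fragments summed over the libraries. The count of members with an unadjusted p under 0.05 was 2 as reported, 1 with no filter on low values, and 1 to 2 with 1 library left out (without VecRPPH1 replicate 2 the 2 were IFI44 and IFI6, not OASL). The count of members with higher means was 3 of 7 as reported, 6 of 10 with no filter on low values and with limma-voom without a filter, 5 of 9 with a filter of 1 CPM, and 2 to 5 of 7 with 1 library left out. With 1 library left out, log2 fold changes ranged from -0.0545 to 0.0685 for OAS2, -0.0529 to 0.0124 for OAS3, -0.0290 to 0.0412 for ISG15 and -0.181 to 0.228 for IFI27. Signs turned for OAS2 (0.0309 without VecRPPH1 replicate 1, 0.0685 without VecNC replicate 2), OAS3 (0.0124 without VecRPPH1 replicate 2), MX1 (-0.0282 without VecRPPH1 replicate 2, as a log2 ratio of means), IFI27 (0.228 without VecRPPH1 replicate 1, 0.0586 and 0.0196 without VecNC replicates 2 and 3) and ISG15 (-0.0030 with median-of-ratios rescaling, -0.0177 and -0.0089 without VecRPPH1 replicates 2 and 3, -0.0082 and -0.0290 without VecNC replicates 2 and 3); the cause was not tested. limma-voom without a filter, chosen after seeing the data, gave OAS1 a log2 fold change of 0.38, MX1 0.16 and MX2 0.42 (adjusted p 0.773, 0.931 and 0.824). Same-numbered libraries did not deviate together over genes (correlations 0.0566, 0.018 and -0.104), and not every library correlated best with its own number. Correlations over genes cannot show whether same-numbered libraries shared a batch that affected only some genes, and this was not tested. The replicate block changed no member's call. With it the SE of IFI27 fell from 0.199 to 0.0796. The SE also fell for OAS2 and IFI6, and it rose for ISG15, OAS3, OASL and IFI44. OAS1, MX1 and MX2 had 12 to 56 fragments per library, which limits the precision of each value.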

Other observations

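Relatives of the members that are not themselves classed as interferon effectors were measured as a further list; IFI27L2 is named outside the rule for named genes, after its values were seen. IFI27L2, a paralog of IFI27, was at 32.03, 42.6 and 37.2 FPKM in VecRPPH1 cells, against 34.4, 37.6 and 38.2 FPKM in VecNC cells, well above IFI27 in every library, and IFI27L1 was at 3.76 to 4.83 FPKM in VecRPPH1 cells and 3.94 to 4.94 FPKM in VecNC cells. Replicate 1 of each group was the lowest library of that group for IFI27L1 and IFI27L2, as it was for IFI27. Of the dynamins, to which MX1 and MX2 are related, DNM2, the ubiquitous form, was at 75.6 ± 1.85 FPKM in VecRPPH1 cells and 77.0 ± 2.64 FPKM in VecNC cells. DNM1, the neuronal form, was at 6.87, 7.34 and 7.01 FPKM in VecRPPH1 cells, against 7.54, 7.66 and 8.06 FPKM in VecNC cells. Its groups did not overlap, its log2 fold change was -0.12 and it did not pass (limma adjusted p = 0.626). Of 5 tested genes of this list, 0 passed by limma or limma-voom.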
